A study of Mus musculus with 3 samples.

Results

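The feedback and target genes of the Wnt/β-catenin pathway described here, *Apcdd1* (ENSMUSG00000071847), *Axin2* (ENSMUSG00000000142), *Nkd1* (ENSMUSG00000031661), *Znrf3* (ENSMUSG00000041961), *Tnfrsf19* (ENSMUSG00000060548), *Lef1* (ENSMUSG00000027985), *Tcf7* (ENSMUSG00000000782), *Tcf7l1* (ENSMUSG00000055799) and *Tcf7l2* (ENSMUSG00000024985), were followed through the endothelial and other cells of the neonatal mouse retina. They were taken by symbol from the gene table of the deposited counts, where all 9 of the 9 listed genes were found among 33696 genes. Single cells were isolated from retinas at postnatal day 6 (P6), enriched with magnetic beads against CD31 and CD11b, and sequenced as 3 libraries with 3' chemistry. The WT library came from wild-type mice. The *Tspan12* KO library came from mice lacking *Tspan12* in all cells. The *Ctnnb1* cKO library came from *Ctnnb1* flox/flox mice carrying *Pdgfb*-iCreER, a tamoxifen-inducible Cre that acts in endothelium, with tamoxifen given in the first postnatal days. All mice were on the C57BL/6 background. Several mice were pooled for each library, and WT animals did not come from the litters of the knockouts.

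With 1 library for each genotype there was no replicate check, so no test was made and no p-value is given. Library and genotype cannot be told apart. Levels are unique molecular identifiers (UMIs, 1 per captured transcript) summed over the cells of a group and divided by the group's total, in counts-per-million units (CPM). The 95% intervals are exact Poisson intervals for levels, exact binomial intervals for log2 ratios and Clopper-Pearson intervals for shares. They cover counting error only, and not the spread between mice. A gene was counted as higher or lower when 2 levels differed by at least 2-fold after 5 CPM was added to each and the 2 groups together held at least 50 UMIs. The printed log2 ratios carry no added value. All 9 genes had at least 50 UMIs in each comparison that is counted below.

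In this pathway a Wnt ligand, or in the retina the unrelated ligand Norrin, binds a Frizzled receptor and its co-receptor, and β-catenin (*Ctnnb1*) then enters the nucleus and binds TCF/LEF proteins on DNA. Tspan12 is a membrane protein that helps Norrin act through the receptor Fzd4, and Norrin signaling is known for driving growth and barrier formation of retinal vessels. Several target genes of β-catenin encode inhibitors of the same pathway, and their transcripts are widely used as a readout of it. Among the 9 genes, *Apcdd1* encodes a membrane protein that inhibits Wnt signaling at the receptor. *Axin2* encodes a scaffold of the complex that degrades β-catenin, *Nkd1* a protein that binds Dishevelled, and *Znrf3* a ubiquitin ligase that removes Frizzled from the cell surface. *Tnfrsf19*, also called Troy, encodes a receptor of the tumor necrosis factor receptor superfamily and is a known Wnt target. *Lef1*, *Tcf7*, *Tcf7l1* and *Tcf7l2* encode the TCF/LEF proteins themselves. Tcf7l1 is best known as a repressor.

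Promoter sequence from RefSeq on GRCm38.p6 is shown because the TCF/LEF proteins that these genes encode bind a short motif, and 3 of the genes carry it near a listed start. Windows of 300 bases, from 250 before to 50 after each listed transcription start, covered 13 starts of 7 of the 9 genes, and none was used for *Apcdd1* or *Znrf3*. The letters searched on both strands were CTTTG followed by AA, AT, TA or TT, forms of 1 motif that cannot share a position on 1 strand. A match was present in 3 of the 13 windows, against 16.9% of all 32851 windows of this length. The stretches of 100 bases that hold the matches are printed 5′ to 3′ on the strand of the gene, with the match in capitals.
*Lef1*, chr3:131156101-131156200, plus strand: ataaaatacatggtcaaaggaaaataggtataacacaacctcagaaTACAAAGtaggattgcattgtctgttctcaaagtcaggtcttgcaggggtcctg
*Tnfrsf19*, chr14:61038136-61038235, minus strand: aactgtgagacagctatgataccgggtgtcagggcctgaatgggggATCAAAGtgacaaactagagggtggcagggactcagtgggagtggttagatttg
*Tcf7l2*, chr19:55895221-55895320, plus strand: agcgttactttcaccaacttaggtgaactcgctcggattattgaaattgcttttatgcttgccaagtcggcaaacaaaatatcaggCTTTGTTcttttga
The matches began 147 bases before the start in *Lef1*, 202 in *Tnfrsf19* and 14 in *Tcf7l2*. Each of these starts is 1 of several listed for its gene, and the letters were not in the windows of the other starts of these genes or of *Axin2*, *Nkd1*, *Tcf7* and *Tcf7l1*. A match is a description of the letters, and counts from the 3' end cannot tell which start a transcript used.

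The libraries differed in depth and in the cells they held. After filtering, 8989 WT, 12732 *Tspan12* KO and 8451 *Ctnnb1* cKO cells were kept, of which 538, 284 and 2703 were endothelial cells (ECs), with medians of 15871.5, 15430 and 3359 UMIs per cell. The 10 endothelial markers, *Pecam1* and *Cdh5* among them, were all detected in the ECs of each library and summed to 9297, 8350 and 7793 CPM. Of the 29 clusters, 1 held most WT and *Tspan12* KO ECs and another most *Ctnnb1* cKO ECs. The deleted genes could not serve as a check of the labels, because 3' counts may come from outside the deleted part. In the order WT, *Tspan12* KO, *Ctnnb1* cKO, the ECs measured 95.8, 85.5 and 40.1 CPM for *Tspan12* and 524, 612 and 445 CPM for *Ctnnb1*. RNA of other cells also differed between the EC groups. Erythrocyte markers summed to 3011 CPM in *Tspan12* KO ECs, against 159 CPM in WT and 195 CPM in *Ctnnb1* cKO, and microglia markers to 584 CPM in *Ctnnb1* cKO ECs, against 138 CPM in WT and 105 CPM in *Tspan12* KO. The part of these cells in the results was not tested. The libraries shared between 21 and 37 cell barcodes pairwise.

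ECs were clustered a second time without the 9 genes, so that their levels could not define the groups, and subclusters were named by fixed markers. Arterial ECs numbered 20 in WT and 313 in *Ctnnb1* cKO. Only 8 were found in *Tspan12* KO, too few to be described. Cycling ECs, marked by *Mki67* and *Top2a*, were found in all 3 libraries, with 231 WT, 140 *Tspan12* KO and 342 *Ctnnb1* cKO cells. Plvap-high ECs, named for a protein of the diaphragms of fenestrated endothelium, were present in *Ctnnb1* cKO alone, with 570 cells. Six3-positive ECs, named for the transcription factor gene *Six3*, numbered 64 in *Tspan12* KO and 711 in *Ctnnb1* cKO, and 0 in WT. The remaining cells, called other ECs, were 287 WT, 72 *Tspan12* KO and 767 *Ctnnb1* cKO cells. The leading genes by fold were *Dkk2*, *Bmx*, *Stmn2*, *Tmem100* and *Pcsk5* for arterial ECs, *H1f5*, *Ube2c*, *Pclaf*, *Top2a* and *Tpx2* for cycling ECs, *Mgp*, *Eln*, *Zbtb16*, *Rasd1* and *Chrm2* for Plvap-high ECs, and *Six3os1*, *Slco1a4*, *Six3*, *Nkd1* and *Itih5* for Six3-positive ECs. *Nkd1* was thus among the leading genes of a state whose clusters were built without it. The ranking pooled the 3 libraries, so it mixed state with library. Of the *Nkd1* UMIs in Six3-positive ECs, 715 came from the 64 *Tspan12* KO cells and 264 from the 711 *Ctnnb1* cKO cells.

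Over all ECs, the feedback inhibitors did not move together between genotypes. *Apcdd1* measured 156 CPM (150 to 162) in WT, 203 CPM (192 to 214) in *Tspan12* KO and 97.7 CPM (92.4 to 103) in *Ctnnb1* cKO ECs. It was thus highest in one knockout and lowest in the other. *Axin2* measured 13.2 CPM (11.5 to 15.1) in WT, 31.8 CPM (27.6 to 36.4) in *Tspan12* KO and 33.9 CPM (30.8 to 37.2) in *Ctnnb1* cKO. Both knockout libraries lay above WT, and their intervals overlapped each other. *Nkd1* measured 30.6 CPM (28.0 to 33.5) in WT, 126 CPM (117 to 135) in *Tspan12* KO and 38.6 CPM (35.3 to 42.1) in *Ctnnb1* cKO, so that *Tspan12* KO stood apart. *Znrf3* measured 79.4 CPM (75.2 to 83.9) in WT, 73.7 CPM (67.2 to 80.6) in *Tspan12* KO and 43.7 CPM (40.1 to 47.4) in *Ctnnb1* cKO, where only the last lay outside the interval of WT. *Tnfrsf19* measured 30.9 CPM (28.2 to 33.7), 71.8 CPM (65.5 to 78.6) and 46.5 CPM (42.9 to 50.4) in the same order.

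The 4 TCF/LEF genes differed less. *Lef1* measured 259 CPM (251 to 267) in WT, 376 CPM (362 to 392) in *Tspan12* KO and 349 CPM (339 to 360) in *Ctnnb1* cKO ECs. It was higher in both knockout libraries but by less than 2-fold. *Tcf7* measured 49.7 CPM (46.3 to 53.2), 55.4 CPM (49.8 to 61.4) and 41.2 CPM (37.8 to 44.9) in the same order, and the intervals of WT and *Tspan12* KO overlapped. *Tcf7l1* measured 74.5 CPM (70.3 to 78.8), 78.3 CPM (71.6 to 85.4) and 94.7 CPM (89.5 to 100.2), and *Tcf7l2* 87.3 CPM (82.8 to 92), 91.5 CPM (84.3 to 99.1) and 117 CPM (111 to 123). For these last genes *Ctnnb1* cKO was the highest library and the other two overlapped.

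Expressed as ratios, 3 of the 9 genes were higher in *Tspan12* KO than in WT ECs and 0 were lower, while 0.557% of the 12207 genes tested were higher and 1.12% lower. The 3 genes were *Nkd1*, at a log2 ratio of 2.04 (1.87 to 2.20), *Axin2* at 1.27 (0.98 to 1.55) and *Tnfrsf19* at 1.22 (1.03 to 1.40). The count was 1 with no doublets removed, 1 by means over cells and 2 under TMM scaling. The median log2 ratio, with 5 CPM added, was 0.37 over the 9 genes and 0.01 over all genes tested. In *Ctnnb1* cKO against the same WT cells, 1 gene was higher, *Axin2* at 1.36 (1.12 to 1.60), and 0 were lower, beside 4.01% of 12803 genes higher and 5.14% lower. By means over cells the count was 0. The lowest ratios, both short of 2-fold, were those of *Znrf3* at -0.86 (-1.01 to -0.72) and *Apcdd1* at -0.67 (-0.77 to -0.57). The median over the 9 genes was 0.33, against -0.08 over all genes. Both knockouts were compared with 1 and the same WT library, so the 2 sets of ratios are not independent.

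The states showed where these transcripts were. In *Tspan12* KO, the 64 Six3-positive ECs made up 22.5% of ECs and 26.6% of their UMIs, but held 87.3% of the *Nkd1* UMIs, 84.4% of those of *Tnfrsf19*, 79.4% of those of *Apcdd1* and 76.8% of those of *Axin2*. They held 58.9% of the *Lef1*, 50.8% of the *Znrf3*, 46.5% of the *Tcf7l2* and 44.0% of the *Tcf7* UMIs. *Tcf7l1*, at 27.5%, was near the share of all UMIs. In *Ctnnb1* cKO, the Six3-positive ECs made up 26.3% of ECs and 26.8% of UMIs, and their shares of the same genes were lower, from 53.4% for *Nkd1*, 50.5% for *Tnfrsf19*, 45.4% for *Axin2* and 44.3% for *Lef1* down to 25.0% for *Tcf7l1*.

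**Figure D1:**
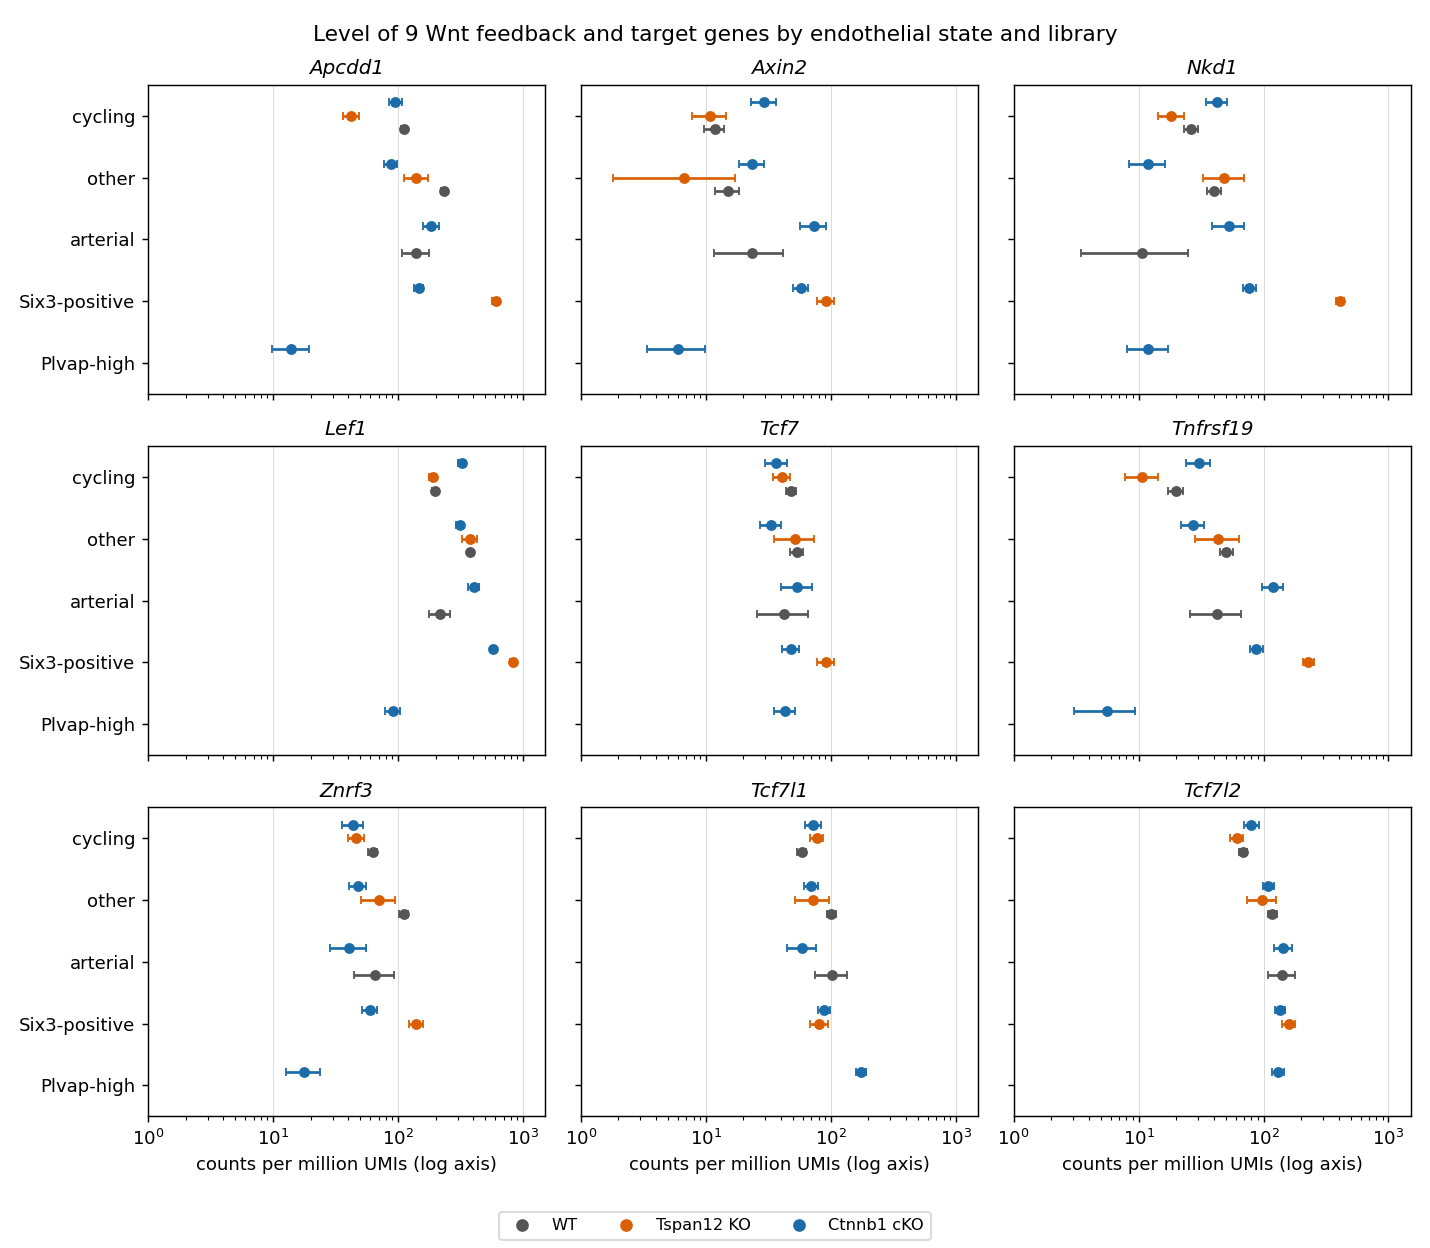
Level of each of the 9 genes in CPM, on a log axis, in the 5 endothelial states, with 1 point per library (WT gray, *Tspan12* KO orange, *Ctnnb1* cKO blue) and bars for the exact 95% Poisson interval, which covers counting error only. *Tspan12* KO Six3-positive cells lie far to the right for *Apcdd1* (605 CPM), *Nkd1* (412 CPM) and *Tnfrsf19* (228 CPM), and *Ctnnb1* cKO Plvap-high cells lie to the left for *Apcdd1* (14.0 CPM) and *Lef1* (90.8 CPM) and to the right for *Tcf7l1* (174 CPM).

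Six3-positive ECs of *Tspan12* KO had high levels of the feedback genes. *Apcdd1* measured 605 CPM (569 to 643) in these cells, 140.4 CPM (112 to 174) in other ECs and 42.4 CPM (36.4 to 49.2) in cycling ECs of the same library. *Nkd1* measured 412 CPM (382 to 443), 48.5 CPM (32.5 to 69.6) and 18.3 CPM (14.4 to 22.9) in the same order, and *Tnfrsf19* 228 CPM (206 to 251), 43.5 CPM (28.4 to 63.7) and 10.7 CPM (7.79 to 14.4). For these genes the 3 states did not overlap. *Axin2* measured 91.6 CPM (77.9 to 107) in Six3-positive ECs, but 6.69 CPM (1.82 to 17.1), from 4 UMIs, in other ECs and 10.7 CPM (7.79 to 14.4) in cycling ECs, and the last states overlapped. *Lef1* measured 832 CPM (790 to 876), 376 CPM (329 to 429) and 189 CPM (176 to 203), and *Znrf3* 140.6 CPM (123 to 159), 70.2 CPM (50.6 to 94.9) and 46.1 CPM (39.7 to 53.1). *Tcf7l1* was level across them, at 80.7 CPM (67.8 to 95.2), 71.9 CPM (52.0 to 96.8) and 77.0 CPM (68.8 to 86.0).

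Against all the remaining ECs of *Tspan12* KO, 8 of the 9 genes were higher in Six3-positive ECs and 0 lower, beside 3.53% of 9525 genes higher and 3.36% lower. The log2 ratio was 4.24 (3.94 to 4.55) for *Nkd1*, 3.90 (3.53 to 4.28) for *Tnfrsf19*, 3.41 (3.22 to 3.61) for *Apcdd1* and 3.19 (2.72 to 3.69) for *Axin2*. It was 1.98 for *Lef1*, 1.51 for *Znrf3*, 1.26 for *Tcf7l2* and 1.12 for *Tcf7*, and *Tcf7l1* stood at 0.06. The median was 1.96 over the 9 genes and 0.09 over all genes. Against other ECs alone, without the cycling cells, the ratios were 3.78 for *Axin2*, 3.09 for *Nkd1*, 2.39 for *Tnfrsf19* and 2.11 for *Apcdd1*. These 64 cells and 3 *Ctnnb1* cKO cells formed 1 subcluster, led by *Nkd1*, *Slco1a4*, *Efhd1*, *Pid1* and *Itih5*, in which the *Tspan12* KO cells had *Six3* at 373 CPM, *Slco1a4*, an organic anion transporter of brain endothelium, at 164 CPM, and *Slc38a5*, an amino acid transporter, at 6.91 CPM.

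In the Six3-positive ECs of *Ctnnb1* cKO fewer of the genes passed 2-fold. Against the remaining ECs of that library, 4 of 9 genes were higher and 0 lower, beside 0.566% of 10962 genes higher and 2.15% lower. These were *Nkd1*, at 76.9 CPM (67.9 to 86.8) and a log2 ratio of 1.65 (1.39 to 1.91), *Tnfrsf19*, at 87.7 CPM (78.1 to 98.2) and 1.48 (1.24 to 1.71), *Axin2*, at 57.4 CPM (49.7 to 66.0) and 1.18 (0.90 to 1.46), and *Lef1*, at 577 CPM (552 to 603) and 1.12 (1.03 to 1.21). *Apcdd1*, at 146 CPM (134 to 160), had a ratio of 0.87 (0.71 to 1.04). The median was 0.83 over the 9 genes and 0.01 over all genes. The 2 large subclusters of this state, of 486 and 222 cells, were led by histocompatibility and interferon-induced genes, unlike the subcluster of *Tspan12* KO. Genes of these kinds were also among the leading genes of other ECs of *Ctnnb1* cKO, in subclusters of 679 and 80 cells. The difference between the libraries in the size of these ratios was not tested.

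Where each cell was assigned by its own *Six3* UMIs after thinning to 2000 UMIs, with no clustering, the contrast was smaller. In *Tspan12* KO, 30 cells were Six3-positive by this rule, and 7 of 9 genes were higher in them, with *Nkd1* at 2.44, *Tnfrsf19* at 2.07, *Apcdd1* at 1.84 and *Axin2* at 1.69. In *Ctnnb1* cKO, 370 cells were Six3-positive and 1 gene, *Nkd1* at 1.27, was higher.

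**Figure D2:**
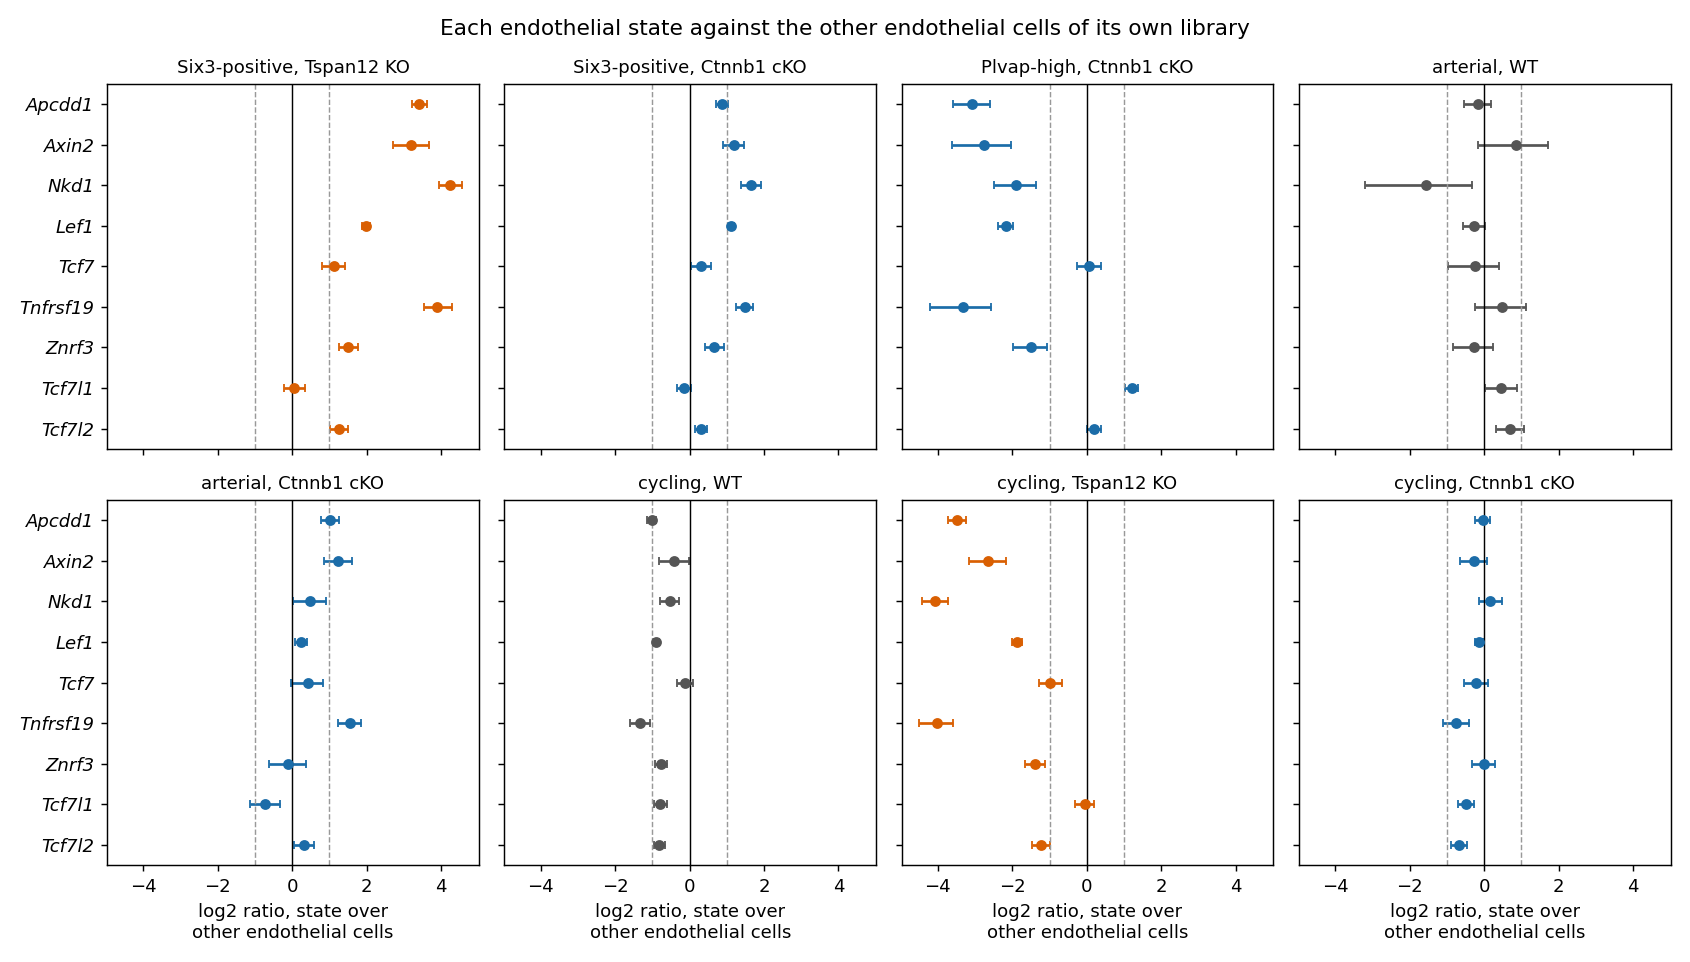
Log2 ratio of each gene in an endothelial state over the remaining endothelial cells of its own library, with 1 panel for each state and library of at least 20 cells, points for the ratio, bars for the exact 95% interval and dashed lines at 2-fold. Of the 9 genes, 8 lie beyond the upper line in Six3-positive *Tspan12* KO cells and 6 beyond the lower line in Plvap-high *Ctnnb1* cKO cells, where *Tcf7l1* lies beyond the upper one.

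Plvap-high ECs had low levels of most feedback genes. All of these cells were from *Ctnnb1* cKO, where they made up 21.1% of ECs and 19.5% of UMIs but held 2.80% of the *Apcdd1*, 3.46% of the *Axin2*, 2.35% of the *Tnfrsf19*, 5.08% of the *Lef1*, 6.07% of the *Nkd1* and 7.87% of the *Znrf3* UMIs. *Apcdd1* measured 14.0 CPM (9.75 to 19.5) in them, from 35 UMIs, *Axin2* 6.0 CPM (3.36 to 9.89) from 15 UMIs and *Tnfrsf19* 5.60 CPM (3.06 to 9.39) from 14 UMIs. *Lef1* measured 90.8 CPM (79.3 to 103), below each other state of at least 20 cells in any library. *Tcf7l1*, the repressor of the family, measured 174 CPM (158 to 191), above each other state of at least 20 cells, and the cells held 35.9% of its UMIs. *Tcf7* at 42.8 CPM (35.1 to 51.7) and *Tcf7l2* at 130 CPM (116 to 145) were within the range of the other states.

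As ratios to the remaining *Ctnnb1* cKO ECs, 6 of the 9 genes were lower and 1 higher in Plvap-high ECs, beside 6.45% of 10962 genes lower and 3.28% higher. The log2 ratio was -3.34 (-4.22 to -2.58) for *Tnfrsf19*, -3.08 (-3.60 to -2.59) for *Apcdd1*, -2.76 (-3.61 to -2.02) for *Axin2*, -2.18 (-2.38 to -1.99) for *Lef1*, -1.91 (-2.49 to -1.38) for *Nkd1* and -1.51 (-1.99 to -1.06) for *Znrf3*. For *Tcf7l1* it was 1.20 (1.03 to 1.37). Against other ECs alone, *Nkd1* did not differ beyond counting error, at 12 CPM against 11.9 CPM and a log2 ratio of 0.02 (-0.72 to 0.74), while *Apcdd1* stood at -2.65, *Tnfrsf19* at -2.29, *Axin2* at -1.97, *Lef1* at -1.78, *Znrf3* at -1.44 and *Tcf7l1* at 1.32. The median was -1.56 over the 9 genes and -0.08 over all genes. The state joined 2 subclusters. One of 349 cells, led by *Eln* and *Mgp* among others, had *Six3* at 412 CPM, *Apcdd1* at 21.4 CPM, *Axin2* at 10.04 CPM, *Lef1* at 117 CPM and *Tcf7l1* at 192 CPM. The other, of 221 cells, had *Six3* at 19.9 CPM, *Apcdd1* at 2.98 CPM from 3 UMIs, 0 UMIs of *Axin2*, *Lef1* at 51.6 CPM and *Tcf7l1* at 147 CPM. By the rule on each cell, 220 cells were Plvap-high and 3 genes were lower, with *Apcdd1* at -1.51, *Tnfrsf19* at -1.60 and *Znrf3* at -1.19, while *Tcf7l1* stood at 0.72. That rule also found 38 Plvap-high cells in *Tspan12* KO, in which 3 genes were lower and 0 higher.

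Arterial ECs differed between the libraries. In the 20 WT cells, *Nkd1* measured 10.6 CPM (3.44 to 24.7) from 5 UMIs and was the single gene lower than in the remaining ECs, at a log2 ratio of -1.56 (-3.19 to -0.33), beside 6.43% of 11517 genes higher and 8% lower. The arterial *Ctnnb1* cKO ECs had *Axin2* at 72.8 CPM (56.5 to 92.3) and *Tnfrsf19* at 119 CPM (97.8 to 143), the highest levels of that library for both genes, although both intervals reached those of Six3-positive cells. Their log2 ratios to the remaining ECs were 1.24 (0.84 to 1.62) and 1.54 (1.23 to 1.84), and these were the 2 genes counted as higher, with 0 lower, beside 2.73% of genes higher and 3.59% lower. *Apcdd1* at 184 CPM (158 to 214) was also highest in arterial cells of *Ctnnb1* cKO, and its interval reached that of Six3-positive cells. The arterial cells of *Ctnnb1* cKO carried *Six3* at 513 CPM, against 14.8 CPM in WT. By the rule on each cell, 0 genes were past 2-fold in 246 arterial *Ctnnb1* cKO cells.

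In cycling ECs of WT the median log2 ratio to the remaining ECs was -0.73 over the 9 genes, against -0.08 over all genes. Of the 9, 1 was counted as lower, *Tnfrsf19* at -1.33, beside 2.57% of genes higher and 1.87% lower. In *Tspan12* KO, 7 of 9 genes were lower in cycling ECs, beside 2.75% of genes higher and 3.53% lower, but the remaining ECs there included the Six3-positive cells. Against other ECs alone the ratio was -1.41 for *Nkd1* instead of -4.07, -2.02 for *Tnfrsf19* instead of -4.03, -1.73 for *Apcdd1* instead of -3.49 and 0.68 for *Axin2* instead of -2.65. In *Ctnnb1* cKO, 0 genes were past 2-fold, with a range from -0.75 for *Tnfrsf19* to 0.17 for *Nkd1*, beside 2.91% of genes higher and 1.7% lower.

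Leaving the Six3-positive ECs out took the ratios of *Nkd1*, *Axin2*, *Tnfrsf19* and *Apcdd1* in *Tspan12* KO below 0. WT held 0 Six3-positive ECs, so this step took out knockout cells alone. In *Tspan12* KO they were the cells with the highest levels of these genes, so a fall was fixed in advance, though not its size. Without them the log2 ratio of *Tspan12* KO over WT was -0.49 for *Nkd1*, -0.40 for *Axin2*, -1.02 for *Tnfrsf19* and -1.45 (from 0.38) for *Apcdd1*, and 1 gene was counted as past 2-fold, *Apcdd1*, which was lower. The interval of *Axin2* reached past 0. *Lef1* went from 0.54 to -0.30, *Znrf3* from -0.11 to -0.69, and *Tcf7l1* stood at 0.06. In *Ctnnb1* cKO the same step moved *Axin2* from 1.36 to 0.94, *Nkd1* from 0.33 to -0.32, *Apcdd1* from -0.67 to -0.96 and *Znrf3* from -0.86 to -1.07, and 0 genes were then counted as past 2-fold.

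**Figure D3:**
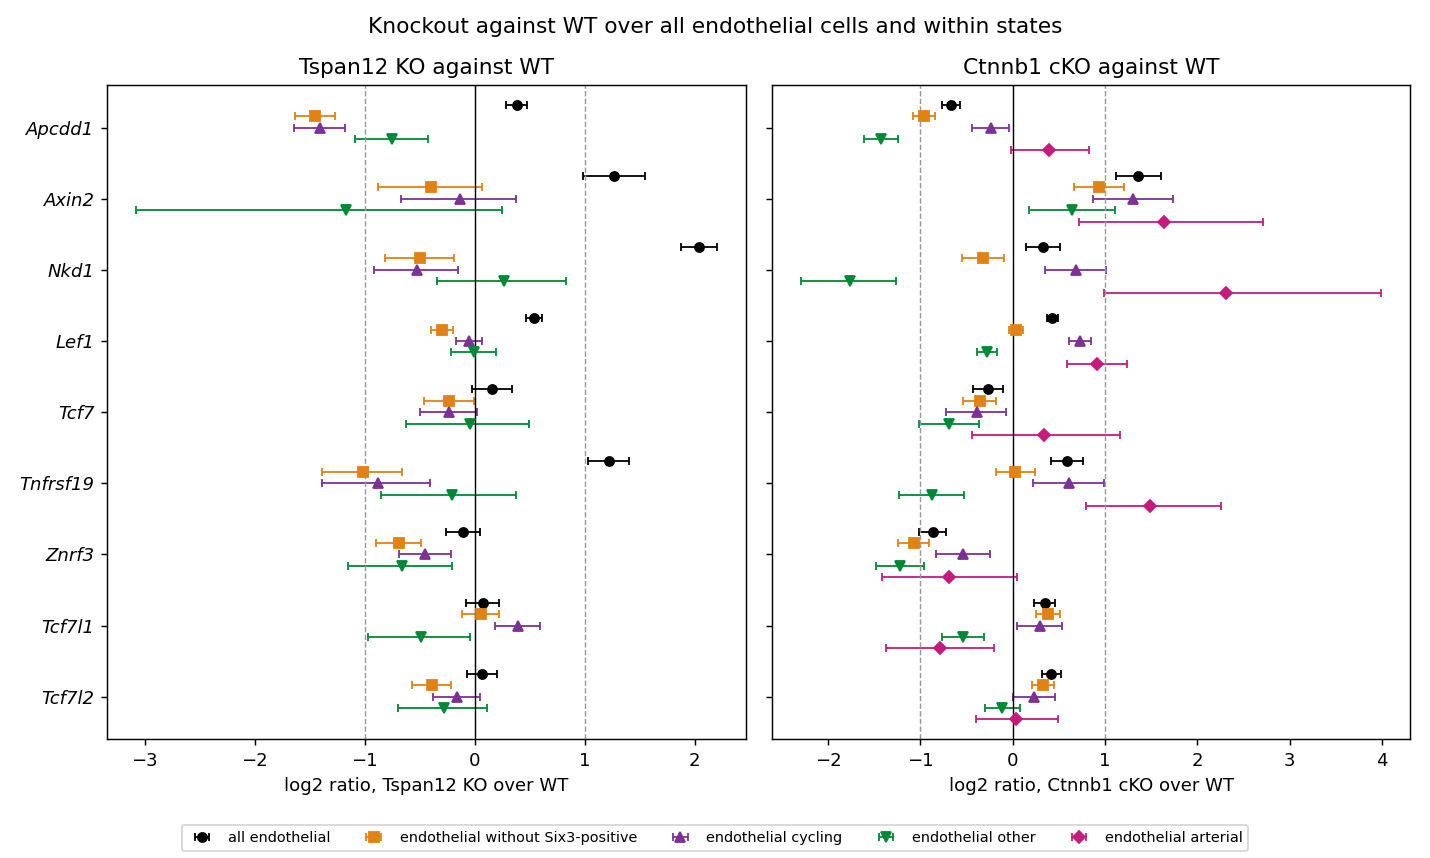
Log2 ratio of each gene in a knockout over WT, for *Tspan12* KO on the left and *Ctnnb1* cKO on the right, over all endothelial cells (black circles), without Six3-positive cells (orange squares) and within cycling (purple), other (green) and arterial (pink) cells, with exact 95% intervals and dashed lines at 2-fold. For *Nkd1*, *Axin2* and *Tnfrsf19* in *Tspan12* KO the black circles lie right of the upper line and the orange squares left of 0. The interval of the *Axin2* square reaches past 0.

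States were matched by name, and within a state most WT and most *Ctnnb1* cKO cells fell in different subclusters. Within states that both genotypes held, *Apcdd1* passed 2-fold in cycling ECs of *Tspan12* KO. It measured 112 CPM (106 to 119) in WT, 42.4 CPM (36.4 to 49.2) in *Tspan12* KO and 95.5 CPM (84.1 to 108) in *Ctnnb1* cKO. Its log2 ratio in *Tspan12* KO was -1.41 (-1.65 to -1.18), and it was the 1 gene of 9 counted as lower, with 0 higher, beside 0.361% of genes higher and 1.14% lower. *Tnfrsf19* stood at -0.88 there, from 19.8 CPM (17.1 to 22.7) in WT to 10.7 CPM (7.79 to 14.4). In other ECs *Apcdd1* measured 236 CPM (223 to 249) in WT, 140.4 CPM (112 to 174) in *Tspan12* KO and 87.9 CPM (78.1 to 98.7) in *Ctnnb1* cKO, so that the 3 libraries did not overlap. The ratio of *Tspan12* KO there was -0.75 (-1.08 to -0.43), where *Znrf3* stood at -0.66 and *Axin2*, from 4 UMIs, at -1.17 (-3.08 to 0.24), and 0 of the 9 genes were counted as past 2-fold, beside 2.13% of genes higher and 3.26% lower. Under the rule on each cell, *Apcdd1* showed no difference in cycling ECs of *Tspan12* KO, with 47 cells and a log2 ratio of 7.65e-06.

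For *Ctnnb1* cKO against WT the direction depended on the state. Most WT and most *Ctnnb1* cKO cells of a state fell in different subclusters. The largest held 231 WT and 334 *Ctnnb1* cKO cells among cycling ECs, 225 and 679 among other ECs, and 20 and 308 among arterial ECs. The part of this split in the ratios was not tested. In other ECs, *Nkd1* at -1.76 (-2.29 to -1.27), *Apcdd1* at -1.42 (-1.61 to -1.24) and *Znrf3* at -1.22 (-1.48 to -0.96) were lower and 0 genes higher, beside 3.96% of genes higher and 8.33% lower. In cycling ECs, *Axin2* was higher, from 11.8 CPM (9.74 to 14.1) in WT to 29.1 CPM (22.9 to 36.3), at a log2 ratio of 1.31 (0.87 to 1.73), and 0 genes were lower, beside 3.25% of genes higher and 5.57% lower. In arterial ECs, *Nkd1* at 2.31 (0.99 to 3.99), *Axin2* at 1.64 (0.72 to 2.71) and *Tnfrsf19* at 1.49 (0.79 to 2.25) were higher and 0 lower, beside 8.09% of genes higher and 10.7% lower, with 20 WT cells behind them. *Axin2* was above 0 in each of these states, at 0.64 in other ECs. *Znrf3* was below 0 in each, at -0.53 in cycling and -0.69 in arterial ECs, where the interval of the last reached past 0.

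The mix of TCF/LEF transcripts stood apart in Plvap-high ECs. Shares of the UMIs of *Lef1*, *Tcf7*, *Tcf7l1* and *Tcf7l2* are compared here between cells and not between genes, since capture can differ between genes. *Lef1* held 55.1% of these UMIs in WT ECs, 62.6% in *Tspan12* KO and 58.0% in *Ctnnb1* cKO. It reached 71.5% and 68.0% in the Six3-positive ECs of *Tspan12* KO and *Ctnnb1* cKO. In Plvap-high ECs, *Lef1* held 20.7% (18.4 to 23.3) and *Tcf7l1* 39.8% (36.8 to 42.7), the single endothelial group of at least 20 cells in which *Tcf7l1* held more of the UMIs than *Lef1*. *Tcf7l2* held 94.5%, 93.6% and 79.3% in microglia and 72.1%, 67.6% and 58.9% in Muller glia of WT, *Tspan12* KO and *Ctnnb1* cKO.

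**Figure D4:**
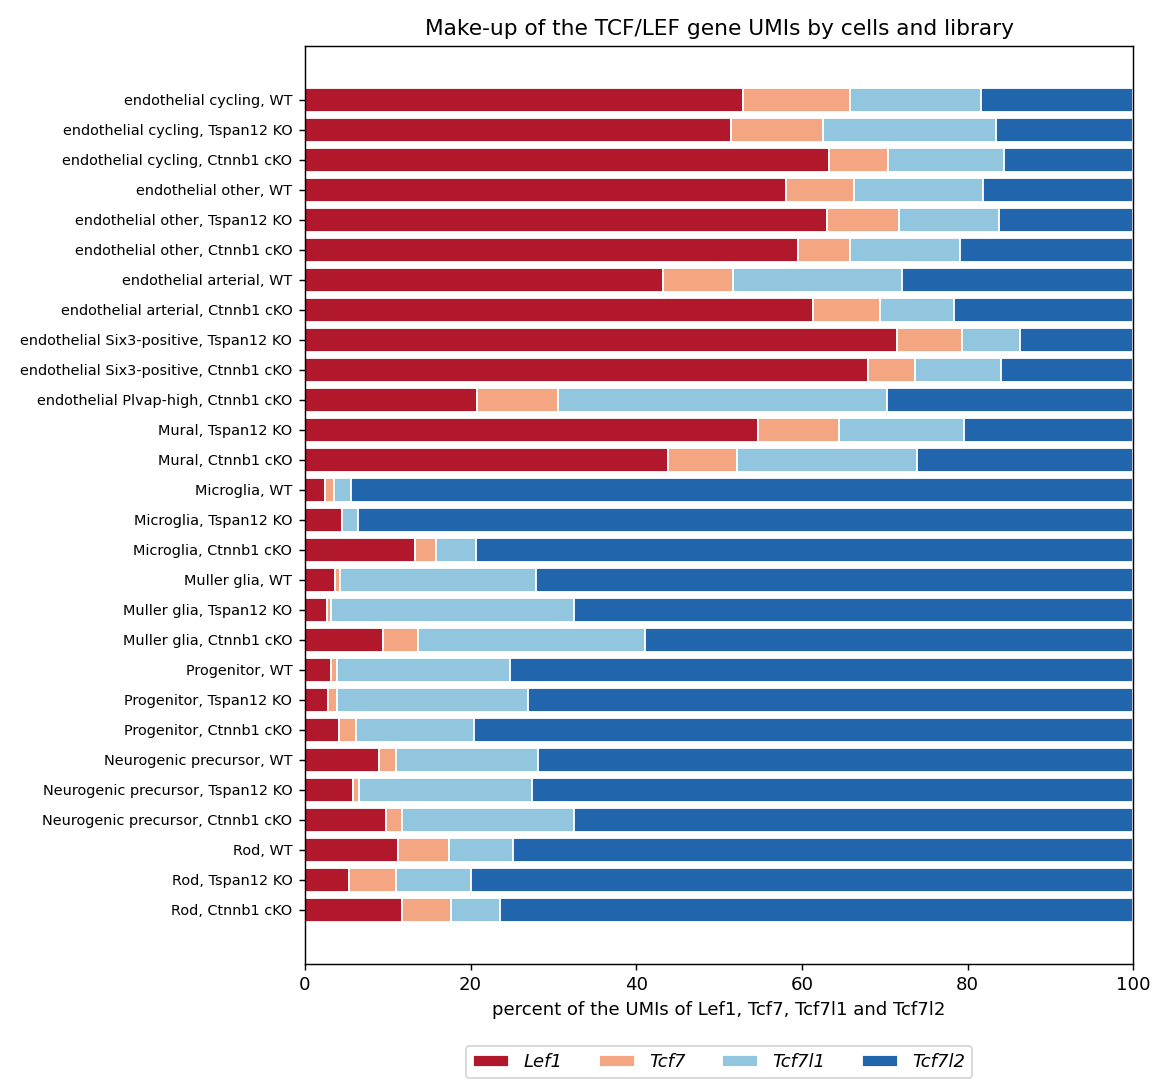
Share of the UMIs of *Lef1* (dark red), *Tcf7* (light orange), *Tcf7l1* (light blue) and *Tcf7l2* (dark blue) in their sum, in percent, with 1 bar for each group of cells and library. *Lef1* takes the largest part of the endothelial bars except in Plvap-high cells, where it holds 20.7%, and *Tcf7l2* takes most of the bars of glial, progenitor, rod and microglial cells.

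Thinning each EC to 2000 UMIs left 520 WT, 261 *Tspan12* KO and 1882 *Ctnnb1* cKO cells, and set aside the difference in depth. *Apcdd1* had a UMI in 28.5%, 24.5% and 13.5% of these cells, *Nkd1* in 4.81%, 13% and 6.54%, and *Axin2* in 3.46%, 4.21% and 5.63%. Rods, a class of photoreceptors, are given for comparison and are not known to lack these transcripts. There *Apcdd1* had a UMI in 1.57%, 0.503% and 2.78%, *Nkd1* in 3.76%, 2.09% and 2.78%, and *Axin2* in 0.939%, 1.93% and 0% of cells. The share for *Nkd1* in WT ECs was thus close to that of WT rods. *Ctnnb1* cKO held 68 rods before thinning, so its rod shares rest on few cells. Of 63 Six3-positive ECs in *Tspan12* KO, 55.6% (42.5 to 68.1) had a UMI of *Apcdd1* and 44.4% (31.9 to 57.5) a UMI of *Nkd1*, so the high levels were not confined to a few cells. Of 394 Plvap-high ECs, 3.05% had a UMI of *Apcdd1* and 31.0% a UMI of *Tcf7l1*.

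*Tcf7l2*, *Znrf3*, *Tcf7l1* and *Nkd1* were also present in glia. Summed over all non-endothelial cells, *Apcdd1* measured 14.3, 14.7 and 14.4 CPM in WT, *Tspan12* KO and *Ctnnb1* cKO, *Axin2* 5.70, 7.07 and 7.32 CPM, *Tnfrsf19* 2.25, 2.94 and 4.80 CPM, and *Lef1* 8.61, 7.76 and 22.3 CPM. Of the 9 genes, 0 were past 2-fold in *Tspan12* KO, beside 0.0986% of genes higher and 0.159% lower. In *Ctnnb1* cKO, *Lef1* was higher, at a log2 ratio of 1.37 (1.19 to 1.56), and 0 were lower, beside 7.91% of genes higher and 7.61% lower. Endothelial markers in the non-endothelial classes other than mural cells stood at 0.918% to 8.94% of the EC level in WT and *Tspan12* KO and at 3.78% to 12.1% in *Ctnnb1* cKO. In the cells of unnamed clusters, which are counted here, their sum was 178, 185 and 417 CPM in the order WT, *Tspan12* KO, *Ctnnb1* cKO. The part of this RNA in the level of *Lef1* was not tested.

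Muller glia, the radial glia of the retina, had *Nkd1* at 75.3, 86.9 and 62.1 CPM in WT, *Tspan12* KO and *Ctnnb1* cKO, *Znrf3* at 106, 96.2 and 79.8 CPM, *Tcf7l1* at 85.2, 118 and 115 CPM and *Tcf7l2* at 260.2, 273 and 248 CPM. Astrocytes had *Znrf3* at 324 CPM in WT and 252 CPM in *Tspan12* KO and *Tcf7l2* at 295 and 279 CPM. *Apcdd1* was present in bipolar cells at 47.4, 49.7 and 24.0 CPM and in neurogenic precursors at 39.5, 36.2 and 24.7 CPM. Most neurogenic precursors of WT and of *Ctnnb1* cKO fell in different clusters, as did most microglia. A class led by *Ttr*, *Crhbp*, *Optc* and *Folr1* had *Tcf7l1* at 206 CPM in cells of *Tspan12* KO and at 122 CPM in those of *Ctnnb1* cKO, *Znrf3* at 168 and 127 CPM and *Lef1* at 139 and 101 CPM. Mural cells, the pericytes and smooth muscle of vessels, had *Apcdd1* at 191 and 181 CPM and *Lef1* at 246 and 217 CPM, but their endothelial markers summed to 62.8% and 68.0% of the EC level, with *Cdh5* at 801 and 634 CPM. The part of endothelial RNA in these mural levels was not tested. *Lef1* stood at 350 CPM, from 46 UMIs, in 21 WT cells of the neutrophil class. Neutrophil markers summed to 4927 CPM in them, against 47981 CPM in the class in *Ctnnb1* cKO. Markers of T or NK cells summed to 1019 CPM in this class in WT, with 3 of 5 detected. In *Ctnnb1* cKO they summed to 263 CPM, with 4 of 5 detected.

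**Figure D5:**
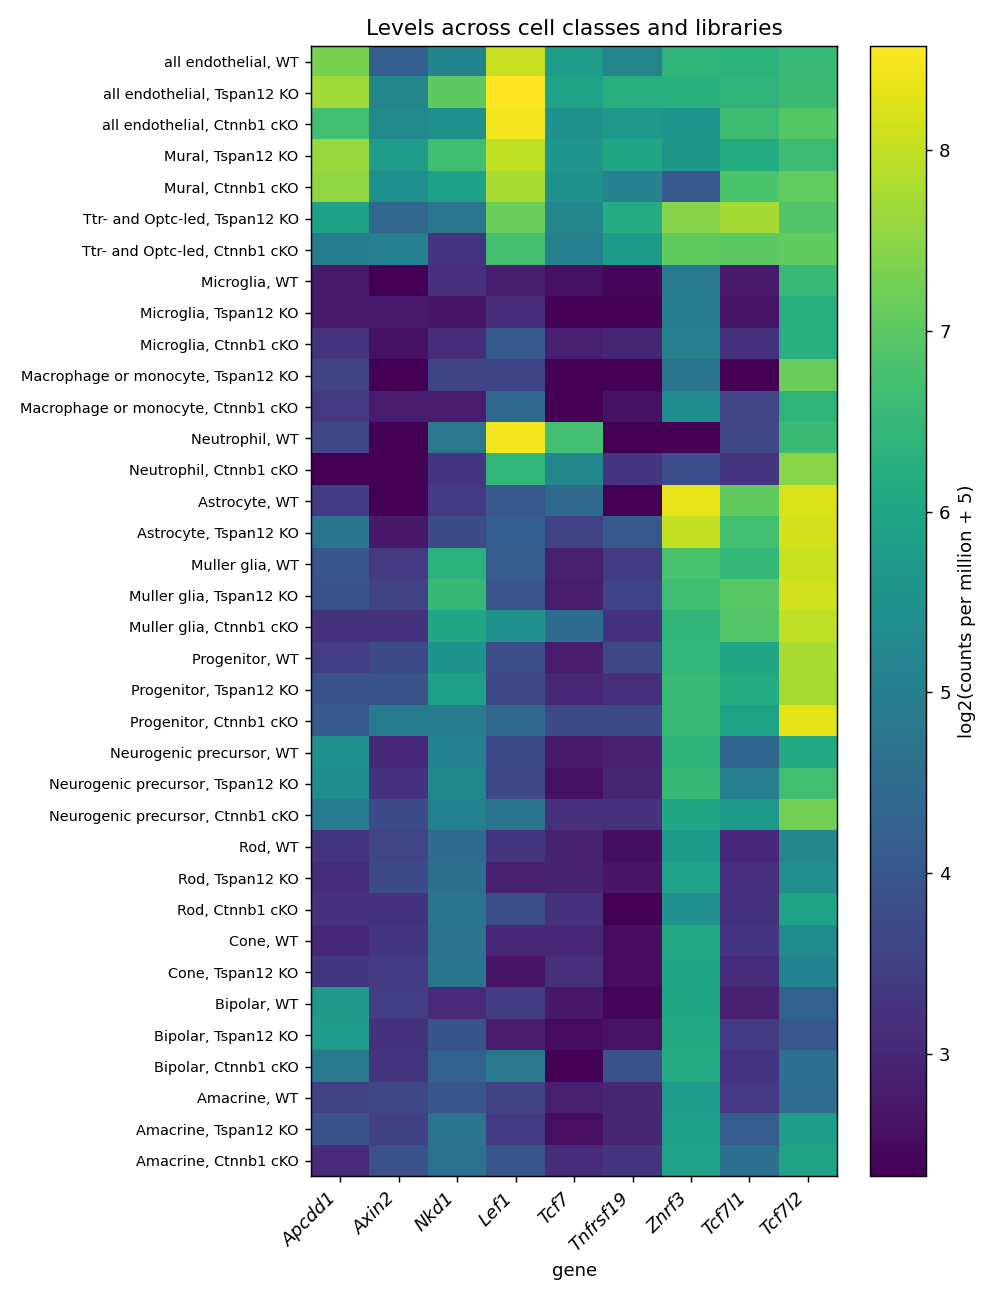
Level of each gene in the endothelial cells and in each class of at least 20 cells of a library, as log2(CPM + 5), on a color scale from dark (low) to yellow (high). Endothelial and mural rows are bright for *Apcdd1* and *Lef1*, and glial rows for *Tcf7l2* and *Znrf3*.

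Other genes of the pathway were counted over all ECs against the shares of all genes, which were 0.557% higher and 1.12% lower in *Tspan12* KO and 4.01% higher and 5.14% lower in *Ctnnb1* cKO. Of 20 other feedback and target genes, 13 had at least 50 UMIs, and 1 was higher and 2 lower in *Tspan12* KO, 0 higher and 3 lower in *Ctnnb1* cKO, with medians of 0.07 and -0.15 beside those of all genes given above. *Ppard*, which encodes a nuclear receptor, was past 2-fold in both knockouts, at 91.1, 35.0 and 34.6 CPM in the order WT, *Tspan12* KO, *Ctnnb1* cKO. *Sp5*, a transcription factor gene and Wnt target named here after its value was seen, was the 1 counted as higher in *Tspan12* KO. Its level rose from 2.60 CPM in WT to 11.7 CPM in that knockout. The other knockout also lay above WT for *Sp5*, with 119 UMIs, a level of 9.29 CPM and a log2 ratio of 1.84 (1.32 to 2.38). After 5 CPM was added this ratio was 0.91, short of 2-fold, so it was not counted. *Cldn5*, which encodes a tight junction protein, was lower in *Ctnnb1* cKO, at a log2 ratio of -1.13. Of 13 receptors and co-receptors 12 were measured, and 0 were past 2-fold in *Tspan12* KO and 1, *Tspan12* itself, in *Ctnnb1* cKO. Of 19 intracellular components, 0 of 18 measured were past 2-fold in *Tspan12* KO and 1 of 19, *Bcl9l*, was higher in *Ctnnb1* cKO. Of 11 ligands, 2 were measured and 0 were past 2-fold. Of 9 secreted inhibitors 2 were measured, and *Dkk2*, a leading gene of arterial ECs, was higher in *Ctnnb1* cKO, at 2.35.

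In the states, other members of the lists were named after their values were seen. In Plvap-high ECs, 0 of 13 other target genes were higher and 3 lower, namely *Foxq1* at -2.66, *Ccnd1* at -1.22 and *Slc2a1*, the glucose transporter of the barrier, at -1.15, beside 3.28% of all genes higher and 6.45% lower. In the same cells 2 of 9 receptors were higher, *Fzd4* at 230 CPM against 68.9 CPM and *Lrp5* at 96.3 CPM against 39.6 CPM in the remaining ECs. Six3-positive ECs of *Tspan12* KO had 3 of 12 target genes higher, *Sp5* at 4.02, *Slc2a1* at 2.31 and *Foxq1* at 1.35, and 1 lower, *Ccnd1* at -1.86, beside 3.53% of all genes higher and 3.36% lower. Those of *Ctnnb1* cKO had 1 of 13 higher, *Slc2a1* at 1.14, and 1 lower, beside 0.566% and 2.15%. The sum of 10 barrier genes was 8013 CPM in Six3-positive ECs of *Tspan12* KO, 5203 CPM in those of *Ctnnb1* cKO and 2083 CPM in Plvap-high ECs, beside 6754, 4572 and 3836 CPM over all ECs of WT, *Tspan12* KO and *Ctnnb1* cKO.

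Likeness was measured as Pearson's r of log2 levels over 44 groups of cells, which share libraries and depth, and is given as a description. The 2 genes most like each were *Tdrp* (0.875) and *Phldb2* (0.848) for *Apcdd1*, *Tnfrsf19* (0.856) and *Pabpc4l* (0.793) for *Axin2*, *Synm* (0.784) and *Eeig1* (0.758) for *Nkd1*, *Col18a1* (0.895) and *Frem2* (0.886) for *Tnfrsf19*, and *Tdrd3* (0.857) and *Cmtm4* (0.841) for *Znrf3*. Among the TCF/LEF genes they were *Tcf7* (0.938) and *Ablim1* (0.937) for *Lef1*, *Lef1* (0.938) and *Ablim1* (0.920) for *Tcf7*, *Yap1* (0.940) and *Id3* (0.932) for *Tcf7l1*, and *Dhrs7* (0.850) and *Zcchc24* (0.834) for *Tcf7l2*. Within the set of 9, *Lef1* and *Tcf7* were thus each nearest to the other. *Tnfrsf19* was nearest to *Axin2*, but the gene nearest to *Tnfrsf19* was *Col18a1*.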

How the data were processed

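The deposited files hold raw UMI counts per gene and cell, which the authors made with Cell Ranger (version 8.0.1 by the file headers, while the methods name another version). The genome build named in the submitters' processing notes is GRCm39 and differs from that of the methods, so no coordinates of the counted genes are given. The 9 genes, the marker and pathway lists and the comparisons were chosen with earlier results of these data known.

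Barcodes under 250 genes or 500 UMIs, or over 15% mitochondrial UMIs, were dropped (9951, 14426 and 9151 barcodes were deposited, with 92684519, 137114957 and 37008362 UMIs in WT, *Tspan12* KO and *Ctnnb1* cKO). The highest Scrublet doublet scores were removed at 0.8% per 1000 cells, which took out 760, 1656 and 665 cells. Cells were clustered in scanpy version 1.11.5 with leidenalg version 0.10.2 (2000 variable genes, 30 principal components, 20 neighbours, resolution 1), with the 9 genes left out and no integration. Names came from marker lists of 20 classes and mean cells like that class. A subcluster took a state when it passed at least 50% of the state's markers, a rule set after the clusters were seen, with cycling before arterial, Plvap-high and Six3-positive. Other cells stayed in their own unnamed clusters and count as non-endothelial. Summed counts were compared as log2 ratios in scipy version 1.17.1, and scaled by TMM in edgeR version 4.0.16 as an alternative. Interval coverage was tested on simulated Poisson counts. The intervals assume such counts, so this could not test coverage under spread between cells, mice or libraries. Besides the 9 genes, the text names list genes past 2-fold in both knockouts, state labels and the leading 5 genes of each state, targeted genes and the 2 genes most like each of the 9. Alternatives were another way to pick ECs and states, other resolutions, no doublet removal, means over cells, a deeper UMI minimum and other thinning depths. Six3-positive, Plvap-high and cycling ECs were each left out as well. An alternative that was not planned left out the EC subcluster led by photoreceptor genes. Promoter windows came from RefSeq, GRCm38.p6. One listed pathway gene is counted but its values are not reported here.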

Additional observations from a re-analysis of the deposited data

Results flagged for a closer look

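Some effects of a knockout pointed in opposite directions in 2 groups of cells, with intervals that did not reach 0 on either side, and the differences were not tested. In cycling and in other ECs, most WT and most *Ctnnb1* cKO cells fell in different subclusters. In *Ctnnb1* cKO against WT, *Nkd1* stood at a log2 ratio of 0.69 in cycling ECs and -1.76 in other ECs, *Lef1* at 0.73 and -0.28, *Tnfrsf19* at 0.61 and -0.88, and *Tcf7l1* at 0.29 and -0.53. *Tcf7l1* showed the same order in *Tspan12* KO, at 0.39 in cycling and -0.49 in other ECs. *Tcf7* stood at -0.27 in all ECs and 2.92 in Muller glia of *Ctnnb1* cKO, the latter from 4 UMIs in *Ctnnb1* cKO and 12 in WT, and *Tcf7l2* at 0.42 in all ECs and -0.32 in microglia.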

How the results depend on the processing

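Of the 162 values of a knockout against WT over all ECs, 109 stayed within their counting interval and 148 kept their sign. Of the 36 whose reported log2 ratio was at least 1 in size, 33 kept it. The other 3, in *Tspan12* KO, were *Nkd1* at -0.49, *Axin2* at -0.40 and *Tnfrsf19* at -1.02 without Six3-positive ECs. For *Axin2* the interval then reached past 0. The number of genes past 2-fold in *Tspan12* KO, 3 as reported, was 1 with no doublets removed, 1 by means over cells and 1 without Six3-positive ECs. In *Ctnnb1* cKO, 1 as reported, it was 0 by means over cells, 0 without Six3-positive ECs, 2 without cycling ECs, both lower, and 3 at a fold of 1.5. TMM scaling left 2 genes in *Tspan12* KO and moved log2 ratios by -0.02 in *Tspan12* KO and 0.14 in *Ctnnb1* cKO, and no ratio of the 9 genes over all ECs changed sign under it. Of 324 ratios of a state to the other ECs, 308 kept their sign, all 149 of that size among them. Of 189 ratios within a state 161 kept it, with 34 of the 37 of that size. The other 3 were *Apcdd1* in cycling ECs of *Tspan12* KO, at 7.65e-06 by the rule on each cell, and *Axin2* in other ECs of *Tspan12* KO, at 0.86 by that rule and 0.12 at resolution 2. The causes were not tested. No paired analysis was possible because each genotype had 1 library. Arterial WT values rest on 20 cells, and differences between mice cannot be seen in these pools.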
